A study of Mus musculus with 25 samples.

Results

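Albumin (Alb), alpha-fetoprotein (Afp) and the vitamin D-binding protein (Gc) are 3 related mouse genes, and they were described here across 25 arrays in 10 groups. Probe sets were chosen by the platform's gene symbol, which gave 1 probe set for Alb, 5 for Afp and 0 for Gc, so that 2 of the 3 genes could be measured with 6 of 45037 probe sets. Gc is therefore named only and not analysed here. Afamin (Afm), another member of the family with 2 probe sets, was added for comparison.

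The family encodes secreted carrier proteins, and its genes lie near each other on one chromosome. Albumin, made by hepatocytes, is the main protein of blood plasma and carries fatty acids, hormones and drugs. Alpha-fetoprotein is its fetal counterpart, made by the yolk sac and the fetal liver and silenced in the liver after birth. Afamin binds vitamin E, and Gc carries vitamin D metabolites. In mice the repressors Zhx2 and Zbtb20 take part in shutting Afp off in the postnatal liver.

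The study followed engineered cells and their tissues of reference. Induced hepatocyte-like cells, called iHeps, were embryonic fibroblasts of C57BL/6J mice (E13.5) that had received Foxa1 and Hnf4a retroviruses. The groups were engrafted iHeps (n = 2), sorted by GFP 12 days after transfer into colons of Rag2gammac-/- mice damaged with DSS, iHeps with Cdx2 shRNA (n = 4), iHeps with scramble shRNA (n = 4), iHeps (n = 3, labelled as independent lines), fetal liver of C57BL/6J at E14.5 (n = 2), adult liver of C57BL/6J (n = 2) and colon crypts of 8-week-old Rag2gammac-/- mice (n = 2). Engrafted iHeps and colon crypts thus share the recipient strain, and all iHep groups carry the 2 transgenes. Both iHep shRNA groups received lentivirus, 2 days of puromycin and a further week of culture. The remaining groups were macrophages (iMacs) induced after Ebf1, Pou2af1 or scramble shRNA and 2 days of puromycin (n = 2 each); the single pre-B line C10 and 100 nM estradiol are named for the scramble arrays, and the labels of the others mention only the conversion. Adult liver was described inconsistently, as liver of 8-week-old mice in one label and as hepatocytes isolated with collagenase from 10-week-old mice in another.

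Values are log2 signals, and 1 unit is a doubling. The 40th percentile of an array lay between 5.52 and 5.80, and the highest value over all probe sets and arrays was 15.11. For each gene the probe set with the highest mean over the 25 arrays was called its main probe set, 1425260_at for Alb, 1416646_at for Afp and 1427561_a_at for Afm. Fold changes, standard errors (SE) and two-sided Benjamini-Hochberg adjusted p-values come from limma fits over all probe sets that passed a filter on dim signals, with a threshold of 0.05. Apart from the iHep lines, nothing in the sample descriptions tells separate cultures or animals from repeats, and the p-values rest on the spread among the arrays alone.

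Several arrays stood apart or went against their labels. Cdx2 was lower in the Cdx2 shRNA iHeps (7.78, 8.02, 8.01 and 8.03) than in the scramble iHeps (9.14, 9.42, 8.96 and 8.98), with a log2 fold change of -1.16 ± 0.12 (SE) and adjusted p = 0.00438. Ebf1 was lower in the Ebf1 shRNA iMacs (7.41 and 7.21) than in the scramble iMacs (8.31 and 8.38), with adjusted p = 0.00718. Pou2af1 was not lower in the iMac arrays labelled Pou2af1 shRNA, at 11.34 and 11.26 against 11.25 and 11.06 in the scramble iMacs, with adjusted p = 0.544. The Foxa1 probe set read only 4.30, 4.14 and 4.52 in the iHep lines that carry the transgene, and whether it can read the transgene is not known here. Nor is it known whether the Hnf4a probe set reads the Hnf4a transgene, so Hnf4a values in iHep groups carry the same limit. The list of 9 hepatocyte markers averaged 13.87 and 14.02 in adult liver, with all 9 above the 40th percentile. Adult liver also carried the Kupffer cell markers Clec4f (12.54 and 10.73) and Vsig4 (12.34 and 10.02), and fetal liver the erythroid gene Alas2 (12.35 and 12.81). Of the engrafted arrays, replicate 2 held more Col1a1 than replicate 1 (12.82 and 7.82), a collagen of fibroblasts, and more of the leukocyte gene Lyz2 (11.37 and 6.11). The fibroblast list averaged 9.48 in replicate 2 and 6.22 in replicate 1, and the leukocyte list 9.04 and 6.25. Not every marker went this way: the leukocyte gene Ctss was lower in replicate 2 (10.27 and 11.30), and the fibroblast gene Thy1 was nearly level (4.97 and 4.81).

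The family's genes lie on chromosome 5 in GRCm38.p6, in the order Gc (89417511 to 89457898), Alb (90460870 to 90476602), Afp (90490714 to 90508907) and Afm (90518949 to 90553544). The 250 bases before the RefSeq start of the 3 measured genes are shown because these promoters are neighbours, and of their genes Afp and Afm differed between fetal and adult liver in opposite directions while Alb did not pass the test. Capitals mark exact matches, on either strand, to GTTAAT (a core of the sites bound by HNF1, a liver factor), CCAAT (NF-Y) and TATAAA (bound by the general factor TBP).
Alb, chr5:90460620-90460869, plus strand: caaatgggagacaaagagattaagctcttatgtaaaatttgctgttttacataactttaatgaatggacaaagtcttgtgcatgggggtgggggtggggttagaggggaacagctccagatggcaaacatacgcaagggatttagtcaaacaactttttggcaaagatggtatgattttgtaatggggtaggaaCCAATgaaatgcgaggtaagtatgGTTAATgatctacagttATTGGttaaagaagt
Afp, chr5:90490464-90490713, plus strand: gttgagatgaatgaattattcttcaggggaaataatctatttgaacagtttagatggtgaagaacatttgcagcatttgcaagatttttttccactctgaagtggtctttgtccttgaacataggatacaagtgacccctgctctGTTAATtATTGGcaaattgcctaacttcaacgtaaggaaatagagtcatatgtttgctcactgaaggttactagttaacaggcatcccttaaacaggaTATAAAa
Afm, chr5:90518699-90518948, plus strand: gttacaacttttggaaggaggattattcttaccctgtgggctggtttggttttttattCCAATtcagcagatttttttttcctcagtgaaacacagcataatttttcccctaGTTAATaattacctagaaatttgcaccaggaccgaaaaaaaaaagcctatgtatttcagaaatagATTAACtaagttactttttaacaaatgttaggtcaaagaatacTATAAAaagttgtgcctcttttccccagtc
All 3 windows held GTTAAT, which 6.432% of 32851 promoter windows of the same 250 bases in the RefSeq table hold. It began at -32 in Alb, at -105 in Afp and at -138 in Afm, counted from the start, and the Afm window held it again on the minus strand at -73 to -68. CCAAT, present in 33.85% of windows, occurred in all 3, and TATAAA, present in 12.368%, in Afp (-7 to -2) and Afm (-30 to -25) but not in Alb. The CCAAT matches lay at -56 to -52 and, on the minus strand, -15 to -11 in Alb, at -98 to -94 on the minus strand in Afp and at -192 to -188 in Afm. No matches of different motifs overlapped. The exact words TGTTTAC, for FOXA factors and held by 3.166% of windows, and TTTATGG, for CDX factors and held by 2.426%, matched in 0 of the 3 windows on either strand. The same was so of CAAAGTCC for HNF4 (1.196%). For C/EBP factors it was so of TTGCGCAA (0.164% of windows), of TTGCGTAA (0.152%) and of TTGCTCAA (0.868%). A match or its absence describes the letters of these windows and no more.

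Alb was a liver transcript in these data, and its level differed widely between iHep lines. It read 6.26 and 6.24 in engrafted iHeps, 9.30, 10.17, 10.67 and 10.64 in Cdx2 shRNA iHeps, 9.61, 10.25, 9.19 and 9.24 in scramble iHeps and 5.69, 9.90 and 11.59 in the iHep lines. Fetal liver read 14.30 and 14.16, adult liver 14.99 and 14.75, and colon crypts 7.29 and 6.77. The iMacs read 6.44 and 6.85 with Ebf1 shRNA, 6.86 and 7.12 with the label Pou2af1 shRNA, and 5.06 and 6.02 with scramble shRNA. Adult liver was highest, fetal liver next and every iHep array below both. The means then ran from Cdx2 shRNA iHeps (10.19) through scramble iHeps (9.57) and iHeps (9.06) to colon crypts (7.03), and each of these neighbours overlapped the next. In bulk samples, fewer cells of a type and less RNA per cell cannot be told apart.

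Afp marked fetal liver and, at lower levels, cultured iHeps. Its main probe set read 6.29 and 5.23 in engrafted iHeps, 10.09, 11.23, 12.18 and 11.92 in Cdx2 shRNA iHeps, 8.19, 9.0, 9.51 and 9.20 in scramble iHeps and 5.95, 7.58 and 10.05 in the iHep lines. Fetal liver read 14 and 13.56, adult liver 6.10 and 6.29, and colon crypts 4.96 and 5.09. The 6 iMac arrays lay between 5.04 and 5.59. Fetal liver was the highest group, the Cdx2 shRNA iHeps came second and overlapped neither fetal liver nor scramble iHeps, and scramble iHeps overlapped the iHep lines, which in turn overlapped adult liver. Adult liver, with its high Alb, sat beside the groups that had little of either transcript.

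**Figure D1:**
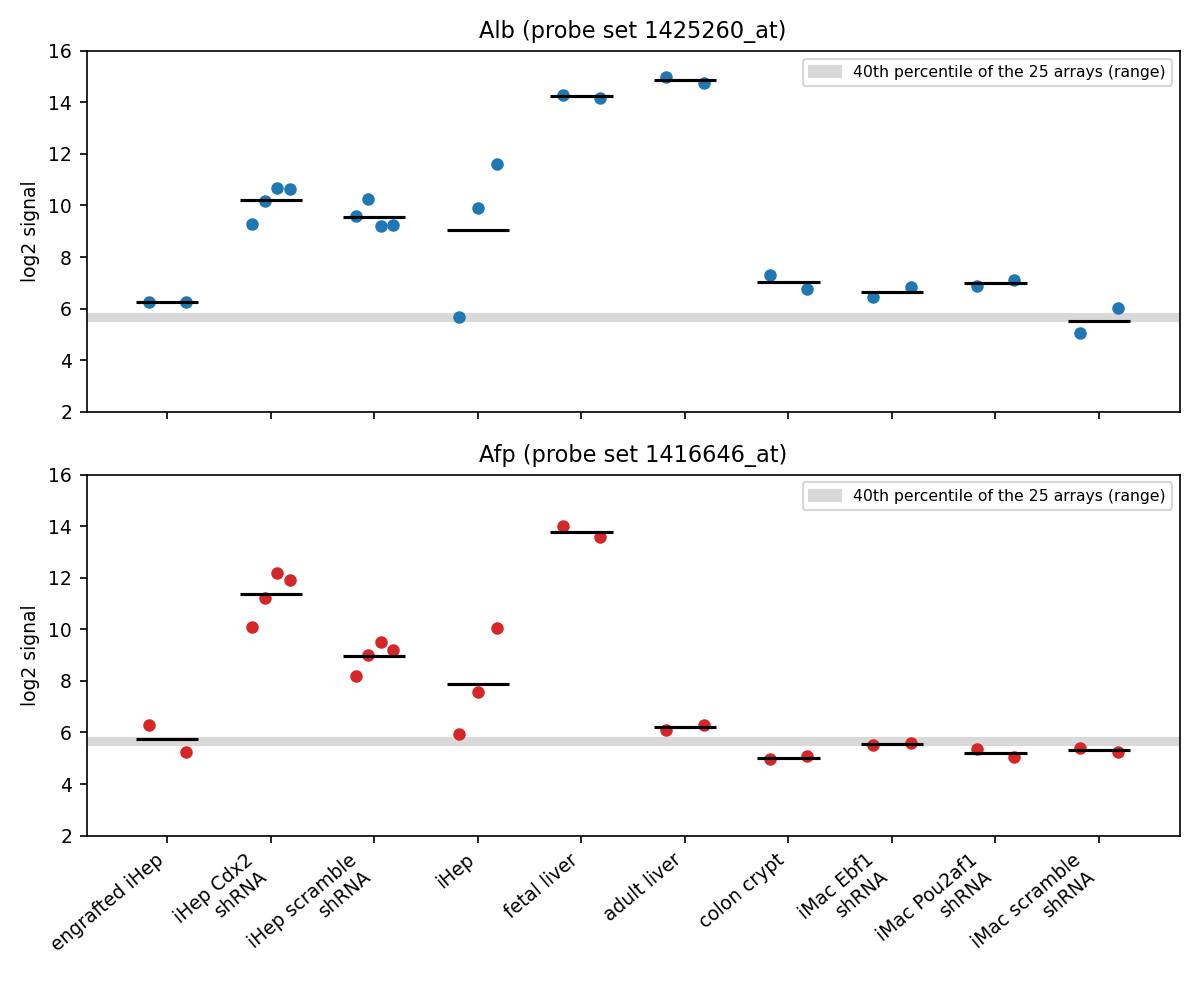
Log2 signal of Alb (upper panel) and Afp (lower panel) in each of the 25 arrays, by group; points are arrays, lines are group means and the grey band is the range of the arrays' 40th percentiles. Alb was high in both liver groups, while Afp was at 14 and 13.56 in fetal liver and near the band in adult liver; the iHep lines spread from 5.69 to 11.59 for Alb.

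The 5 Afp probe sets did not report alike. The probe set 1416645_a_at had the widest range, with 14.30 and 14.36 in fetal liver and 4.28 and 3.33 in adult liver. The probe set 1436879_x_at followed the main one, with 13.25 and 13.30 in fetal liver and 5.53 and 4.86 in adult liver. The probe set 1436881_x_at stayed between 3.94 and 6.29 outside fetal liver, where it read 5.83 and 7.72. The probe set 1436880_at read between 4.63 and 5.37 in all 25 arrays, fetal liver included, and never passed the filter. So 4 of the 5 could be tested in the iHep, liver and colon comparisons, 0 of the 5 in the iMacs, and 3 of the 5 carried clear signal in iHeps.

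Afp was far higher in fetal than in adult liver. It was 191-fold higher in fetal liver than in adult liver by its main probe set (log2 fold change 7.58 ± 0.99 SE, adjusted p = 0.000139). All 4 Afp probe sets tested were higher in fetal liver, where 26.4% of 34568 probe sets were higher and 47.6% were called in either direction. Of these, 1436881_x_at passed the filter only through the fetal liver arrays, so its call is not independent of the filter. For 1416645_a_at the log2 fold change was 10.52 ± 1.51 (adjusted p = 0.000257), and 0 of the other probe sets had a higher one. Against a group near or below the 40th percentile such folds are limited by background signal and are no exact size.

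Alb and Afm did not follow Afp. Alb was lower in both fetal arrays than in both adult arrays, by -0.64 ± 1.39 on the log2 scale, which did not pass the test (adjusted p = 0.746). Its standard error in this fit is shared with the iHep lines, whose spread was wide. In a model of 8 arrays without those lines, chosen after seeing the data, the standard error was 0.28 and the adjusted p 0.0982, and Afp kept its call (1.02e-05). Both groups read near the top of the scale, and whether the signal still grew with the transcript there was not tested. Afm read 7.78 and 7.44 in fetal liver and 12.81 and 12.36 in adult liver by its main probe set, a log2 fold change of -4.97 ± 0.62 (adjusted p = 0.000104). Its second probe set, 1427440_a_at, gave -4.78. In every other group Afm stayed at or below 7.43, cultured iHeps included.

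Genes around the cluster were a mixture. Albfm1, an albumin superfamily member just beyond Afm, read 4.95 and 5.17 in fetal liver and 12.23 and 10.97 in adult liver, with a log2 fold change of -6.54 ± 0.39 (adjusted p = 1.55e-06). It stayed below 6.1 in every array outside adult liver. In this fit Albfm1 passed the filter only through the adult liver arrays, so its call is not independent of the filter. Of the 8 neighbours, 4 on each side of the cluster, 6 were tested, 3 were higher in fetal liver and 2 lower, where 48.8% of genes were called by their main probe sets, 30.9% higher and 18% lower. Ppbp, a platelet chemokine gene, was among the higher ones (6.83 ± 0.51), as were Cox18 and Ankrd17, and Rassf6 was lower (-3.03 ± 0.32). Without the fetal liver arrays Ppbp would not have passed the filter, so its call is not independent of the filter either. Afp and Afm, adjacent on the chromosome, thus differed between the stages in opposite directions.

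**Figure D2:**
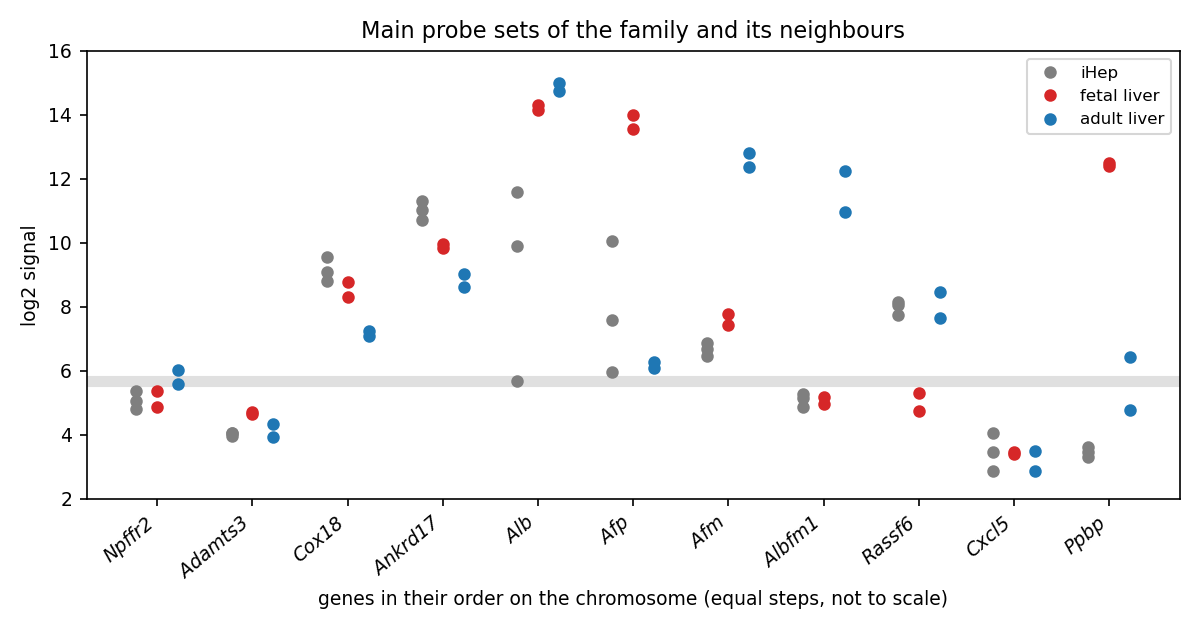
Log2 signal of the main probe sets of the family and its 8 neighbours in iHeps, fetal liver and adult liver, in gene order; points are arrays and the grey band is the range of the arrays' 40th percentiles. Afm and Albfm1 were highest in adult liver among these 3 groups, Afp was high in fetal liver, and Alb was high in both liver groups with the iHep lines below.

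Regulators known for this family were mostly lower in fetal liver. Of 21 measured regulators, 2 were higher in fetal liver, 14 were lower and 5 did not pass, where 30.9% of genes were higher and 18% lower, with a median log2 fold change of -2.19, against 0.16 over the main probe sets of all genes tested. The repressor Zbtb20 read 6.63 and 6.85 in fetal liver and 11.23 and 11.72 in adult liver (-4.74 ± 0.47, adjusted p = 2.46e-05). Zhx2, the other postnatal repressor of Afp, read 7.03 and 7.11 in fetal liver and 8.29 and 8.39 in adult liver (-1.27 ± 0.26, adjusted p = 0.00249). Activating factors moved the same way, among them Foxa2 (-4.32 ± 0.28), Onecut1 (-4.67 ± 0.33) and Cebpa (-2.32 ± 0.28). These activators and both repressors were thus lower together. The 2 higher in fetal liver were Cebpd and Tcf7l2.

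Genes listed with Afp as fetal liver or Zhx2-controlled genes were mostly higher in fetal liver too. Of 6 measured, 4 were higher in fetal liver and 0 lower, where 30.9% of genes were higher and 18% lower, with a median log2 fold change of 2.83. They were Gpc3, a cell surface proteoglycan (3.67 ± 0.96), Lpl, lipoprotein lipase (1.83 ± 0.66), the protease inhibitor Spink1 (2.25 ± 0.38) and the surface protein Cd24a (6.85 ± 0.66). Igf2 (3.40 ± 1.52) and Dlk1 (2.12 ± 1.03) did not pass. Markers of cell types differed too: all 4 erythroid markers tested were higher in fetal liver, with the list averaging 11.25 and 11.49 in fetal liver and 7.10 and 6.66 in adult liver, and 8 of 9 hepatocyte markers were lower. Among these markers, the erythroid gene Slc4a1 would not have passed the filter without the fetal liver arrays. The hepatocyte gene G6pc would not have passed it without the adult liver arrays. Their calls are thus not independent of the filter. The part of cell composition in these results was not tested.

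Among 7 carriers and receptors tested, 1 was higher in fetal liver and 3 lower, a share near the 48.8% of genes called in either direction. Fcgrt, the receptor chain that rescues albumin from degradation, was lower in fetal liver (-2.64 ± 0.44), and so were its partner B2m (-1.73 ± 0.23) and the scavenging receptor Lrp1 (-3.82 ± 0.32). Cd36 was the higher one. Among vitamin D genes, which belong to the pathway that Gc serves, 4 of 6 tested were lower in fetal liver and 0 higher, where 18% of genes were lower. They included Cyp2r1, the liver 25-hydroxylase (-3.22 ± 0.43), and Dhcr7, which draws on its precursor (-3.45 ± 0.46). Without the adult liver arrays Cyp2r1 would not have passed the filter, so its call is not independent of the filter.

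iHeps held less Alb than either liver stage and carried Afp in part. Alb was lower in the iHep lines (5.69, 9.90 and 11.59) than in adult liver, by -5.81 ± 1.27 on the log2 scale (56.1-fold, adjusted p = 0.00304), in a comparison where 55.1% of probe sets were called and 23.1% were lower. It was also lower than in fetal liver, by -5.17 ± 1.27 (adjusted p = 0.0131), where 26.6% were called and 11.1% were lower. The groups did not overlap in either case. Leaving out 1 array at a time gave -7.08 to -4.13 against adult liver, with the call kept each time. Without fetal liver replicate 1 or replicate 2 the call against fetal liver was lost (adjusted p = 0.0783 and 0.0839) at similar log2 fold changes of -5.10 and -5.24; the lone array is then assumed to vary like the other groups. The comparisons among iHeps and tissues share arrays, here the iHep lines.

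Afp in the iHep lines lay between the liver stages. It was lower than in fetal liver by -5.92 ± 0.90 (60.5-fold, adjusted p = 0.000863), and all 4 tested probe sets were lower. Among them, 1436881_x_at passed the filter only through the fetal liver arrays, so its call is not independent of the filter. Leaving out 1 array at a time gave -7.01 to -4.97 for the main probe set, with the call kept each time. Of the others, 1416645_a_at lost its call without fetal liver replicate 1 or replicate 2 (adjusted p = 0.0695 and 0.0841, at -5.72 and -5.66). Relative to adult liver, where 32% of probe sets were higher, 1 of 4 was higher: 1416645_a_at, which read 5.56, 8.95 and 11.41 in the iHep lines and 4.28 and 3.33 in adult liver (4.83 ± 1.38, adjusted p = 0.0128). That call was lost without adult liver replicate 2 (adjusted p = 0.0881). The main probe set overlapped adult liver, at 1.66 ± 0.90 (adjusted p = 0.147), and passed only when iHep replicate 1 was left out (2.61, adjusted p = 0.00943). Afm was lower in iHeps than in adult liver by both probe sets (-5.91 ± 0.56 and -7.97 ± 0.32).

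The main Afp probe set was higher in iHeps than in colon crypts by 2.83 ± 0.90 (adjusted p = 0.023), and 3 of 4 tested probe sets were higher, where 27.1% of probe sets were higher and 54.1% were called. Without colon crypt replicate 1 or replicate 2 this call was lost (adjusted p = 0.101 and 0.0879), at similar log2 fold changes of 2.77 and 2.89, where the lone colon array is assumed to vary like the other groups. The calls of 1416645_a_at (0.0804) and 1436879_x_at (0.171) were lost without replicate 2, at 4.47 and 2.31. Alb differed by 2.03 ± 1.27 and did not pass (adjusted p = 0.203), since iHep replicate 1 at 5.69 lay below both colon arrays. Without that line the difference was 3.72 (adjusted p = 0.000223).

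The spread among the 3 iHep lines was itself among the largest on the arrays. Alb had an SD of 3.04 there, and 23 of 45037 probe sets (0.051%) had a larger one, against a median SD of 0.19. Afp had an SD of 2.06, which 163 probe sets (0.362%) exceeded. Both genes were lowest in replicate 1, intermediate in replicate 2 and highest in replicate 3. Ttr, the liver transport protein transthyretin, had the same order (4.93, 8.84 and 12.00), as had Igf2 (7.35, 10.76 and 13.87) and Gpc3 (5.90, 8.56 and 9.60). Hnf4a was lowest in replicate 1 as well (7.67, 10.78 and 10.48), whereas Cdx2 was highest there (10.33, 8.97 and 9.17). Cd24a, listed with Afp like Igf2 and Gpc3, ran the other way (12.63, 12.03 and 11.22). Apoa1, an apolipoprotein gene of the hepatocyte list, did not follow the order of Alb and Afp (14.97, 14.90 and 14.89). Nor did Apob (9.31, 9.05 and 10.32), Cyp2e1 (5.18, 5.00 and 5.65) and G6pc (4.01, 3.77 and 4.40) of that list. The average of the 9 hepatocyte markers followed it (7.22, 8.52 and 9.35), with 4, 6 and 7 of them above the 40th percentile. So did the average of the 6 fibroblast markers, at 5.20, 7.79 and 8.29 in replicates 1 to 3, with 1, 5 and 5 of them above the 40th percentile. Among these Thy1 did not follow the order (5.20, 5.45 and 5.15). The 3 biliary markers averaged 11.30, 9.46 and 10.35, with Krt7 highest in replicate 1 (12.02, 8.16 and 8.79) and Sox9 in replicate 3 (8.77, 8.31 and 9.49). The part of fibroblast-like cells in the spread of Alb and Afp was not tested.

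The shRNA iHeps were more even. The SD of Alb was 0.64 in Cdx2 shRNA iHeps and 0.49 in scramble iHeps, and that of Afp 0.94 and 0.56, against medians of 0.17 and 0.16 over all probe sets. In scramble iHeps 2.434% of probe sets had a larger SD than Alb, and 1.31% a larger one than Afp. Setting scramble iHeps against the iHep lines, Alb differed by 0.51 ± 1.19 (adjusted p = 0.844) and Afp by 1.12 ± 0.84 (adjusted p = 0.509). With limma 0 of 28622 probe sets passed (0%), in either direction. Without iHep replicate 1 the Alb difference turned round to -1.17 (adjusted p = 0.361).

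Cdx2 knockdown went with higher Afp in iHeps. Cdx2, a transcription factor of the intestine, was targeted there. Afp was 5.20-fold higher in Cdx2 shRNA iHeps by its main probe set, with means of 11.35 ± 0.94 in Cdx2 shRNA iHeps and 8.98 ± 0.56 in scramble iHeps (SD, n = 4 each), a log2 fold change of 2.38 ± 0.45 and adjusted p = 0.0421. The groups did not overlap. The probe set 1416645_a_at read 11.52, 12.45, 12.85 and 12.95 in Cdx2 shRNA iHeps against 9.70, 10.52, 10.55 and 10.65 in scramble iHeps (2.09 ± 0.32, adjusted p = 0.0209), and 1436879_x_at read 9.46, 10.75, 11.26 and 11.22 against 7.28, 8.72, 8.84 and 8.69 (2.29 ± 0.46, adjusted p = 0.0495).

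Few probe sets changed in this comparison. The 3 Afp probe sets were called higher, of 4 tested, where 1.41% of 28627 probe sets were called and 0.423% were higher. Only 1 of the probe sets tested had a higher fold change than the main Afp probe set, and 3 a higher one than 1416645_a_at. The remaining probe set tested, 1436881_x_at, differed by 0.45 and did not pass. Even so the calls lay near the threshold. The main probe set's call was lost in 7 of 8 fits that left out 1 array, all but Cdx2 shRNA replicate 1, with log2 fold changes of 2.10 to 2.80 and a highest adjusted p of 0.12. The call of 1436879_x_at was lost in the same 7 fits (highest adjusted p 0.139) and that of 1416645_a_at in 6 of 8 (highest 0.0689).

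Same-numbered arrays of the Cdx2 and scramble groups deviated together, with correlations of 0.52, 0.31, 0.57 and 0.46 over probe sets, so the numbers were taken to pair them. Arrays with different numbers were not compared, so this check cannot tell pairs from larger batches. Krt7 read 6.37, 7.66, 10.06 and 10.06 in Cdx2 shRNA replicates 1 to 4, and 8.01, 8.30, 9.45 and 9.42 in scramble replicates 1 to 4. In this gene replicates 1 and 2 lay apart from 3 and 4 in both groups, so the pairs may not be separate blocks. How far such a grouping runs through all probe sets was not tested. Results within pairs or with the replicate block rest on the assumed pairing. Within pairs Afp was higher by 1.89, 2.22, 2.67 and 2.72 in the Cdx2 shRNA arrays. With the replicate number as a block the adjusted p was 0.00355 for the main probe set, and 1020 probe sets were called where the fit without it called 404. The rise held in every pair and for each of the 3 probe sets that carried signal. Their groups did not overlap, so any pairing of the arrays would give the same direction.

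Alb did not pass the test in this comparison. It differed by 0.62 ± 0.33 (adjusted p = 0.472, and 0.34 with the block), and its groups overlapped. Of the 28627 probe sets tested, 270 had a higher fold change than Alb. Within pairs the differences were -0.32, -0.08, 1.48 and 1.4, so pairs 1 and 2 did not show the higher Alb of pairs 3 and 4. These pairs also differed in other genes: Col3a1, a collagen of fibroblasts, read 9.21 and 9.13 in Cdx2 shRNA replicates 1 and 2 and 11.27 and 10.98 in replicates 3 and 4. In scramble iHeps it read 9.85 and 9.62 in replicates 1 and 2 and 11.38 and 10.99 in replicates 3 and 4. Afm differed by 0.02 ± 0.19 (adjusted p = 0.987).

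**Figure D3:**
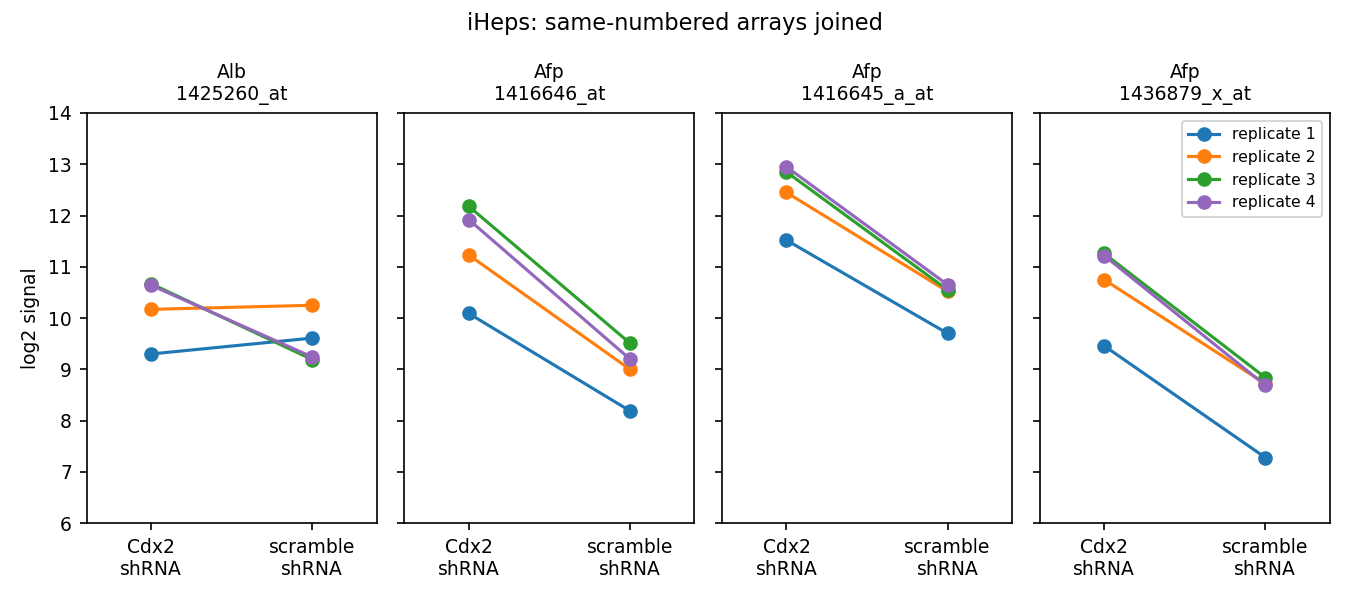
Log2 signal of Alb and of 3 Afp probe sets in iHeps with Cdx2 shRNA (left in each panel) and scramble shRNA (right); points are arrays and lines join arrays with the same replicate number. All 4 pairs had higher Afp with Cdx2 shRNA for each probe set, while Alb was higher in pairs 3 and 4 only.

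The unequal change of both genes was tested within arrays. The log2 signal of Afp minus that of Alb was 0.79, 1.06, 1.51 and 1.28 in Cdx2 shRNA iHeps against -1.42, -1.24, 0.32 and -0.04 in scramble iHeps. Every Cdx2 shRNA array lay above every scramble array, and the means differed by 1.76. An exact two-sided permutation test over the 4 and 4 arrays gave p = 0.0286, the smallest that this design allows. It takes all these arrays as exchangeable. In scramble iHeps, however, replicates 1 and 2 (-1.42 and -1.24) lay apart from replicates 3 and 4 (0.32 and -0.04). A permutation that keeps such a grouping was not run. Permuted within the 4 pairs, p was 0.125, again the smallest possible. Because the 2 probe sets differ in brightness, only the change of this difference between groups can be read, not its sign.

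Adult liver stood far from the rest on the same measure. Fetal liver had -0.31 and -0.60, against -8.89 and -8.45 in adult liver. The iHep lines had 0.26, -2.32 and -1.54, and engrafted iHeps 0.03 and -1.01. In groups where both signals were near background, such as colon crypts (-2.33 and -1.68) and iMacs, the difference reflects 2 low signals.

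**Figure D4:**
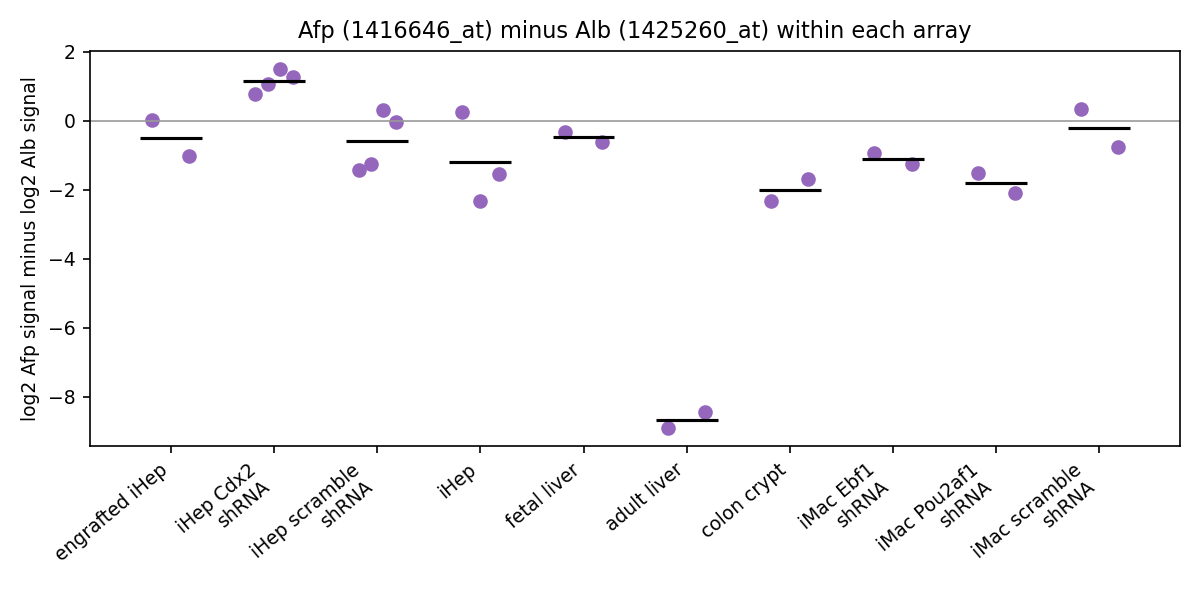
Log2 signal of Afp minus log2 signal of Alb within each array, by group; points are arrays and lines are group means. Cdx2 shRNA iHeps (0.79 to 1.51) lay above all scramble iHeps (-1.42 to 0.32), and adult liver lay near -8.67.

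Regulators of the family gave 0 calls with Cdx2 shRNA, without or with the replicate block, which is near the share of all genes called. Of 19 tested, 0 were higher and 0 lower by limma, where 1.69% of genes were called by their main probe sets, 0.41% higher and 1.28% lower. The median log2 fold change was -0.12, against 0 over all genes tested. Without the block Hnf4a came nearest, at 9.12, 9.07, 9.52 and 9.67 in Cdx2 shRNA iHeps against 10.43, 10.48, 9.82 and 10.22 in scramble iHeps (-0.89 ± 0.18, adjusted p = 0.0549, and 0.0676 with the block). It was lower in all 4 pairs. Cebpd was higher in all 4 (0.70, adjusted p = 0.0545 with the block) and Dbp lower in all 4 (-0.56, adjusted p = 0.0504 with the block). Zhx2 (-0.16 ± 0.12) and Zbtb20 (-0.26 ± 0.15) did not pass. Of the 6 genes listed with Afp 0 passed without the block and 1 with it. This was Gpc3, which was higher with Afp in fetal liver and had a negative fold change here (-1.47 ± 0.32, adjusted p = 0.0678, and 0.0381 with the block), at 7.38, 8.55, 8.90 and 9.05 in Cdx2 shRNA iHeps against 9.81, 10.07, 9.75 and 10.11 in scramble iHeps. Sparc, a matrix protein that binds albumin, was the only one of 6 carriers and receptors tested to pass (0.85 ± 0.16, adjusted p = 0.0453, and 0.0361 with the block). Of 5 vitamin D genes 0 passed without the block, and Cyp27a1 was lower with it (-1.12, adjusted p = 0.027). With the block, added for these lists after seeing the data, 4.1% of genes were called by their main probe sets, 1.19% higher and 2.92% lower.

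Most marker lists gave 0 calls in this comparison, where 1.69% of genes were called by their main probe sets. With so few genes tested per list, 0 calls is near that share and says little about cell types. The list of 6 leukocyte markers averaged 4.74 to 4.94 in Cdx2 shRNA iHeps and 4.70 to 5.23 in scramble iHeps. The 6 fibroblast markers averaged 8.67 to 9.01 in Cdx2 shRNA iHeps and 8.46 to 8.66 in scramble iHeps, with 0 of 5 tested past the threshold. Of the 8 colon markers 5 were tested, and only Cdx2 itself passed, joined with the block by Lgals4 (-1.04, adjusted p = 0.00991). Of 6 hepatocyte markers tested, Tat, a tyrosine-degrading liver enzyme, was higher (adjusted p = 0.0456). Ttr was 8.36 in Cdx2 shRNA replicate 1 and 11.91 to 12.43 in the other arrays of that group, against 11.80 to 12.71 in scramble iHeps.

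After engraftment in colon, both genes lay near the bottom of the iHep range. Alb was 6.25 ± 0.01 in engrafted iHeps (SD, n = 2) and 9.06 ± 3.04 in the iHep lines (n = 3), a log2 fold change of -2.81 ± 1.27 that did not pass (adjusted p = 0.0943). The engrafted arrays lay above iHep replicate 1 and below replicates 2 and 3. Left without replicate 1, Alb passed (-4.50, adjusted p = 0.000104), and so did the main Afp probe set (-3.05, adjusted p = 0.00596). With all lines, the main Afp probe set differed by -2.10 ± 0.90 (adjusted p = 0.0797).

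Only 1 of 4 tested Afp probe sets passed, where 48% of all probe sets were called and 25.7% were lower. It was 1416645_a_at, with 5.74 and 3.16 in engrafted iHeps (-4.19 ± 1.38, adjusted p = 0.0297). The call was lost without iHep replicate 2 or 3 (adjusted p = 0.0729 and 0.071) or engrafted replicate 2 (-2.90, adjusted p = 0.171). It was lost with the replicate number as a block too (-2.80, adjusted p = 0.0883), and iHep replicate 3 has no engrafted partner. Against colon crypts 0 of the 5 tested probe sets of Alb and Afp passed in engrafted iHeps, where 17.7% of probe sets were called by limma. The Alb difference was -0.78 ± 1.39 (adjusted p = 0.742) and the Afp difference 0.73 ± 0.99 (adjusted p = 0.649).

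Most genes listed with Afp were lower after engraftment. Of the 6 measured, 4 were lower, 0 were higher and 2 did not pass, where 47.7% of genes were called by their main probe sets, 29.6% lower and 18.1% higher. They were the growth factor Igf2 (-5.72 ± 1.39), Lpl (-4.68 ± 0.60), the growth regulator Dlk1 (-3.60 ± 0.94) and Gpc3 (-2.49 ± 0.87). Igf2 read 5.23 and 4.64 in engrafted iHeps against 7.35, 10.76 and 13.87 in the iHep lines. Spink1 stayed at 13.06 and 13.57 in engrafted iHeps and 13.20, 13.80 and 13.87 in the iHep lines.

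Factors that bind these genes' control regions were not uniformly lower. Of 21 regulators, 8 were higher in engrafted iHeps and 3 lower, where 18.1% of genes were higher, 29.6% lower and 47.7% called in either direction. Hnf4a was higher (2.49 ± 0.77), as were Foxa3 (5.39 ± 0.46), Foxa1 (4.50 ± 0.54) and Foxa2 (2.33 ± 0.25). The part of the Hnf4a and Foxa1 transgenes in these signals was not tested. Zhx2 read 8.15 and 8.63 in engrafted iHeps against 7.03, 6.78 and 7.27 in the iHep lines (1.36 ± 0.24, adjusted p = 0.00114). Zbtb20, the other postnatal repressor of Afp, read 6.74 and 8.36 against 7.01, 6.80 and 7.56 and did not pass (0.43 ± 0.43, adjusted p = 0.435). The lower ones were Nr2f1 (-3.14 ± 0.45), Nr2f2 (-1.08 ± 0.40) and Dbp (-2.56 ± 0.94). All 8 colon markers were higher, and their list averaged 11.64 and 10.94 in engrafted iHeps against 7.06 to 7.5 in the iHep lines and 12.43 and 12.39 in colon crypts. The part of host crypt cells in these values was not tested.

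iMacs gave low signals for the family. Alb lay at 6.44 and 6.85 with Ebf1 shRNA against 5.06 and 6.02 with scramble shRNA (1.10 ± 0.32, adjusted p = 0.0855, where 9.37% of 28438 probe sets were called). With the replicate number as a block, which the check of same-numbered iMac arrays did not bear out, its adjusted p was 0.0411. In the arrays labelled Pou2af1 shRNA it lay at 6.86 and 7.12 and passed (1.45 ± 0.32, adjusted p = 0.0481, where 7.63% were called and 4.59% were higher). It no longer passed without a filter (adjusted p = 0.0726), nor without Pou2af1 replicate 1 (0.148), Pou2af1 replicate 2 (0.182) or scramble replicate 1 (0.97, adjusted p = 0.131). Both comparisons share the scramble arrays. These iMacs expressed the macrophage and leukocyte lists (averages of 11.67 to 12.56 and 13.06 to 13.29) and had hepatocyte markers at an average of 4.52 to 4.84.

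**Figure D5:**
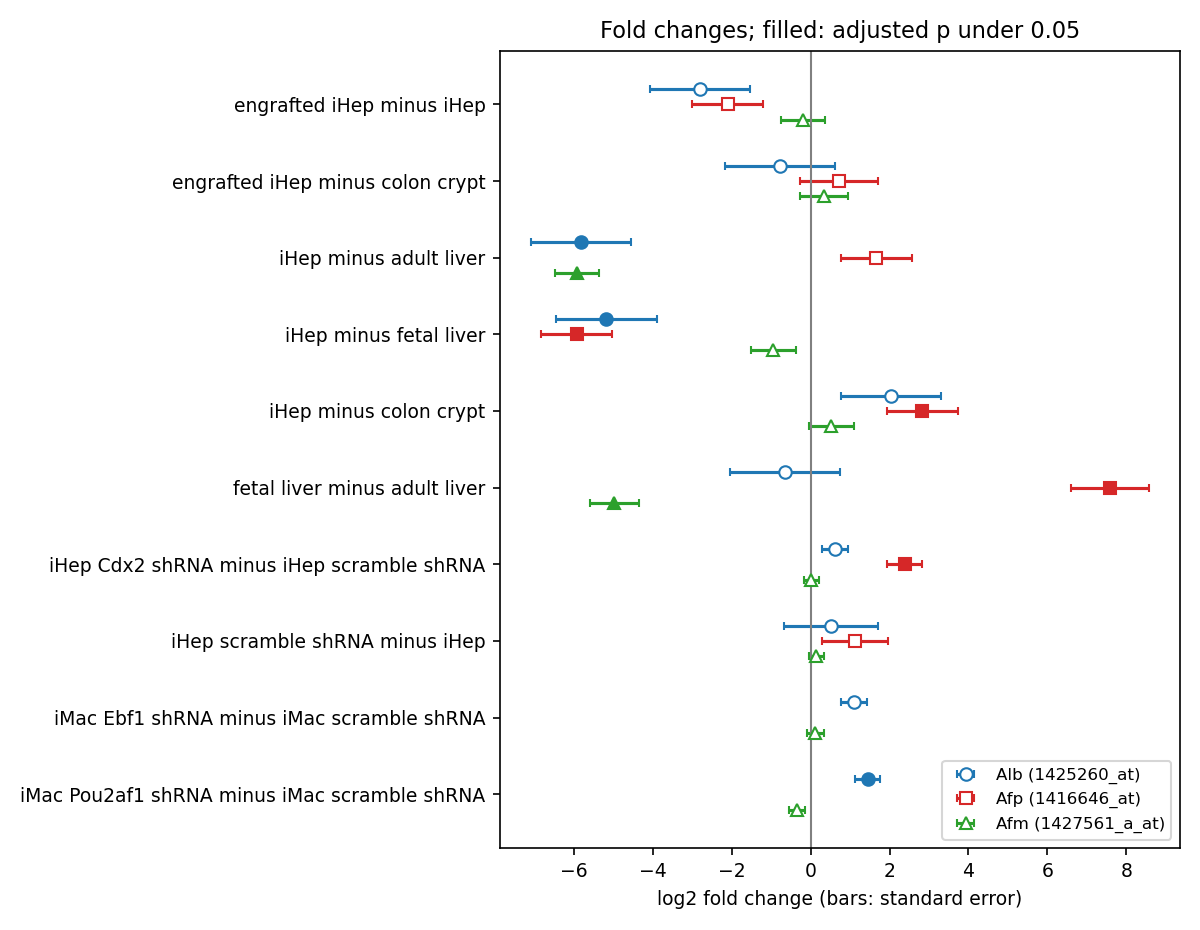
Log2 fold changes (first group minus second) with SE for the main probe sets of Alb, Afp and Afm in the 10 comparisons; filled symbols passed an adjusted p of 0.05, and a comparison with no Afp symbol had no Afp probe set past the filter. Afp was higher in fetal than in adult liver (7.58) while Afm was lower (-4.97), and with Cdx2 shRNA only Afp among the 3 passed.

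Genes whose levels followed Alb most closely over the 10 group means were Josd2, a deubiquitinase (r = 0.982), Serpina1c, a plasma protease inhibitor (0.975), Fgg, the fibrinogen gamma chain (0.97), Hebp1, a heme-binding protein (0.969), Cldn1, a tight junction protein (0.957), and Spp2, a secreted phosphoprotein (0.953). For Afp they were Top1, a topoisomerase (0.945), Ptdss2 (0.94), Glrx5, a mitochondrial glutaredoxin (0.934), Atad5 (0.933), Tfdp2, a partner of E2F factors (0.929), and Dnaja4, a co-chaperone (0.925). These are Pearson correlations over 10 points, ranked among 3528 genes whose highest group mean was at least 10 and whose range was at least 3, given as a description. Fgg read 11.96 and 11.46 in fetal liver and 14.42 and 14.23 in adult liver, so it shared with Alb the order of both liver stages. Of the Afp list, Glrx5 was highest in fetal liver and lower in adult liver (13.76 and 13.82 in fetal liver, 10.77 and 11.55 in adult liver).

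Within cultured iHeps the followers were other genes. Over the 11 arrays of iHeps, scramble and Cdx2 shRNA iHeps, the 6 nearest to Alb among 866 genes with a range of at least 2 were Serpinb6b (r = 0.971), Esrp1, an epithelial splicing factor (0.965), Tlcd2 (0.963), Smim31 (0.956), Fuca2 (0.956) and Myo5b, a motor of epithelial transport (0.945). The 6 nearest to Afp were Cdkn1c, a cell cycle inhibitor (0.955), Emb (0.926), Ttc39a (0.92), Smagp (0.917), Psapl1 (0.909) and Ly6d (0.905). Alb and Afp correlated at 0.722 over these arrays, where 204 genes ranked closer to Alb than Afp did. The 11 points share iHep replicate 1, the lowest array for both genes, and the 4 pairs of shRNA arrays. Cdkn1c read 8.45, 8.88, 10.07 and 9.42 in Cdx2 shRNA iHeps, against 7.52, 7.93, 8.78 and 8.40 in scramble iHeps and 6.41, 6.87 and 8.04 in the iHep lines.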

How the data were processed

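Biotin-labelled cRNA from 100 ng of RNA per sample was hybridised to 25 Affymetrix arrays. The deposited table holds log2 values, which the authors made with RMA per the submitters' processing notes (its version is not given in the sources used here). No array files were used. Of 45101 probe sets, 64 controls were left out. The platform annotation gave 34945 probe sets 1 gene symbol, 932 several and 9160 none.

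Fits used limma 3.58.1 (lmFit, eBayes) in R 4.3.3, in 4 models: iHeps and tissues (11 arrays), Cdx2 and scramble shRNA iHeps (8), scramble shRNA iHeps and iHep lines (7), and iMacs (6). Dim probe sets were left out of a model unless at least 2 of its arrays placed them above their own 40th percentile. P-values were Benjamini-Hochberg adjusted within each comparison. The steps were tested on simulated data, where 98% of changes of 2 log2 units were recovered in the Cdx2 model and 57% in the comparison of engrafted iHeps with iHeps. Of the probe sets called there, 6.4% and 4.7% were false. The simulated arrays varied independently, without the correlated deviations of same-numbered arrays. Far fewer probe sets were changed than were called in the engrafted comparison. These shares need not hold for the real arrays. The number of arrays limits precision. Arrays of the Cdx2 and scramble groups with the same number were taken as pairs from their correlated deviations, since the labels do not state a pairing. Arrays with different numbers were not compared. Members and gene lists were chosen with earlier results of these data known. Named genes were the members, the genes of these lists and the 6 genes most like each member. Alternatives were other scaling, filters, an all-array model, the replicate block, a model without the iHep lines and leaving out each array. Promoter sequences are from RefSeq (GRCm38.p6).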

Additional observations from a re-analysis of the deposited data

Results flagged for a closer look

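In scramble shRNA iHeps, replicate 1 lay apart from its group for 2 Afp probe sets. It read 9.70 for 1416645_a_at, where the other 3 arrays read 10.52 to 10.65, and 7.28 for 1436879_x_at, where they read 8.69 to 8.84. In both cases its gap to the nearest array, divided by the range of the group, was above Dixon's critical value for 4 samples. Such a gap was looked for in 18 sets of values, and chance gives it in about 1 in 20. Without this array the Cdx2 shRNA difference was 1.87 for 1416645_a_at (adjusted p = 0.0511) and 1.92 for 1436879_x_at (adjusted p = 0.095).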

How the results depend on the processing

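Settings other than leaving out an array changed few calls, and the cause was not tested for those that changed. Fitting all 25 arrays in one model moved the Cdx2 shRNA difference of Afp to adjusted p = 0.0987 (2.38), brought engrafted iHeps against iHeps past the threshold for Afp (-2.10, 0.0212) and Alb (-2.81, 0.0166), and took Alb in the Pou2af1 arrays to 0.672 (1.45). Without a filter that Alb call was lost (1.45, 0.0726). The replicate block brought Alb with Ebf1 shRNA past it (1.10, 0.0411) and changed no other call of the main probe sets of Alb and Afp; in the Cdx2 lists it added Gpc3, Cyp27a1 and Lgals4, all lower. For Afp minus Alb, permutation within pairs gave 1.76 (exact p = 0.125), and leaving out arrays gave 1.48 to 2.06, where the exact permutation test cannot go below p = 0.0571.

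Leaving out 1 array at a time gave log2 fold changes of -3.05 to -1.01 for Afp and -4.50 to -1.55 for Alb in engrafted iHeps against iHeps. For iHeps against livers it gave 0.57 to 2.61 for Afp (adult) and -6.44 to -3.49 for Alb (fetal). Against colon crypts it gave 1.74 to 3.79 for Afp and 0.77 to 3.72 for Alb. It gave 2.10 to 2.80 for Afp with Cdx2 shRNA, -1.17 to 1.78 for Alb in scramble iHeps against iHeps and 0.97 to 1.93 for Alb in the Pou2af1 arrays. Small differences changed sign: for 1427440_a_at (Afm) in engrafted iHeps against iHeps with quantile scaling (-0.05), median centring (-0.11) or an array left out (-0.15 to 0.17), and for 1436881_x_at (Afp) there with centring (-0.06) or an array left out (-0.02 to 0.14). With an array left out, 1427561_a_at (Afm) ranged from -1.15 to 0.76 for engrafted iHeps against iHeps, -0.62 to 1.30 against colon crypts, -0.28 to 1.34 for iHeps against colon crypts, -0.09 to 0.16 with Cdx2 shRNA, 0.00 to 0.24 for scramble iHeps against iHeps and -0.15 to 0.40 with Ebf1 shRNA. For 1416645_a_at (Afp) in engrafted iHeps against colon crypts it ranged from -0.37 to 2.21.

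Counts of called probe sets moved more. With Cdx2 shRNA 404 became 115 with all arrays, 1020 with the block and 87 to 281 with an array left out. Engrafted iHeps against colon crypts gave 6128, then 12355 with all arrays and 2306 to 9420 with an array left out. iHeps against fetal liver gave 9205, then 5136 to 7862. Scramble iHeps against iHeps gave 0, then 164 with all arrays and 0 to 200. Ebf1 shRNA gave 2665, then 1573 without a filter, 847 with all arrays and 497 to 1082. The Pou2af1 arrays gave 2170, then 1219 without a filter, 3310 at the 60th percentile, 668 with all arrays and 317 to 376. Median centring moved the median fold change from -0.081 to -0.198 in engrafted iHeps against iHeps, from 0.062 to 0.221 in iHeps against adult liver, from 0.045 to 0.175 in iHeps against colon crypts and from 0.023 to 0.135 in fetal against adult liver. Beyond the sign changes above, directions of the family's genes held under these scalings.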
